A study of Mus musculus with 8 samples.

Results

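The axon guidance families are the semaphorins with their plexin and neuropilin receptors, the ephrins with their Eph receptors, the Slits with their Robo receptors, and the netrins with theirs. They were examined here in migrating primordial germ cells (PGCs), the precursors of sperm and eggs. Members were chosen by gene symbol alone, and 68 of the 19938 genes measured belonged to these families. Of them 34 are ligands and 34 are receptors. RefSeq (GRCm38.p6) lists 69 symbols that fit the families, and the remaining one, Ephb2, was not analysed here.

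The 2 groups were 4 embryos homozygous for the Y324C allele of Ror2 (Ror2Y324C/Y324C, called mutant) and 4 WT embryos (Ror2+/+), all at embryonic day 9.5. Ror2 is a receptor tyrosine kinase of the Wnt5a pathway. Both groups came from Ror2Y324C/+ mothers and Ror2Y324C/+ fathers that were homozygous for the Oct4-ΔPE reporter, on a mixed strain background, so all embryos shared the transgene. Mutants 1 to 4 had 24, 22 to 23, 23 and 21 to 22 somites, against 25, 25, 22 and 21 in WT 1 to 4. Mutant embryos carried the allele in every tissue, so cells around the PGCs were mutant too. GFP-positive cells were sorted from the posterior part of each embryo, and their RNA was amplified and hybridised to 1 array per embryo. The embryo is thus the replicate, and precision is limited by there being 4 per group. Replicate numbers name embryos within a group and are not stated to pair them.

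Guidance ligands steer cells and growth cones by binding receptors that act on the actin cytoskeleton. Plexins are the signalling receptors of semaphorins, and class 3 semaphorins mostly need a neuropilin as a ligand-binding partner. Ephrin-A ligands are held in the membrane by a lipid anchor and ephrin-B ligands span it, so Eph signalling needs cell contact and can run in both directions. Slits are secreted and mostly repel cells that carry Robo1 or Robo2, while netrins act through Dcc and neogenin (Neo1) or through the Unc5 receptors. At this stage PGCs are on their way out of the hindgut to the future gonads, through tissue in which all of these families are used.

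Values are the deposited log2 values, 1 per gene and array. The brightness of a probe depends on its sequence as well as on the transcript, so values are compared between embryos within a gene and not between genes. The sort was checked first. All 13 germ cell markers lay above 5.61, the median of all gene means, and their mean ran from 9.87 to 9.97 in mutants, against 9.67 to 10.02 in WT, where WT 3 was lowest. The Ror2 probe read 7.72, 7.72, 8.29 and 7.50 in mutants 1 to 4, against 7.83, 7.38, 7.81 and 7.76 in WT 1 to 4, and because the allele changes 1 amino acid its level does not check the labels. WT 3 also had the narrowest distribution (its SD over genes was 1.77, and that of the other 7 arrays at least 1.82). It held the highest mean of 5 of 7 lists of somatic cell markers, lists in which most genes had means below 5.61.

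About as many guidance genes gave a probe signal above the middle of the array as below it. Of 68 members, 31 (45.6%) had a mean above 5.61, namely 18 ligands and 13 receptors, and 37 lay below it. A second mark came from 1194 genes for odorant and pheromone receptors, which sensory neurons use. Their median was 3.64 and their 95th percentile 5.26, and 48 members had a mean above that percentile while 20 did not. No background signal was used here, so neither mark is a detection limit. Between embryos the members varied as other genes did, with a median SD over the 8 arrays of 0.24, which is also the median of all genes.

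**Figure D1:**
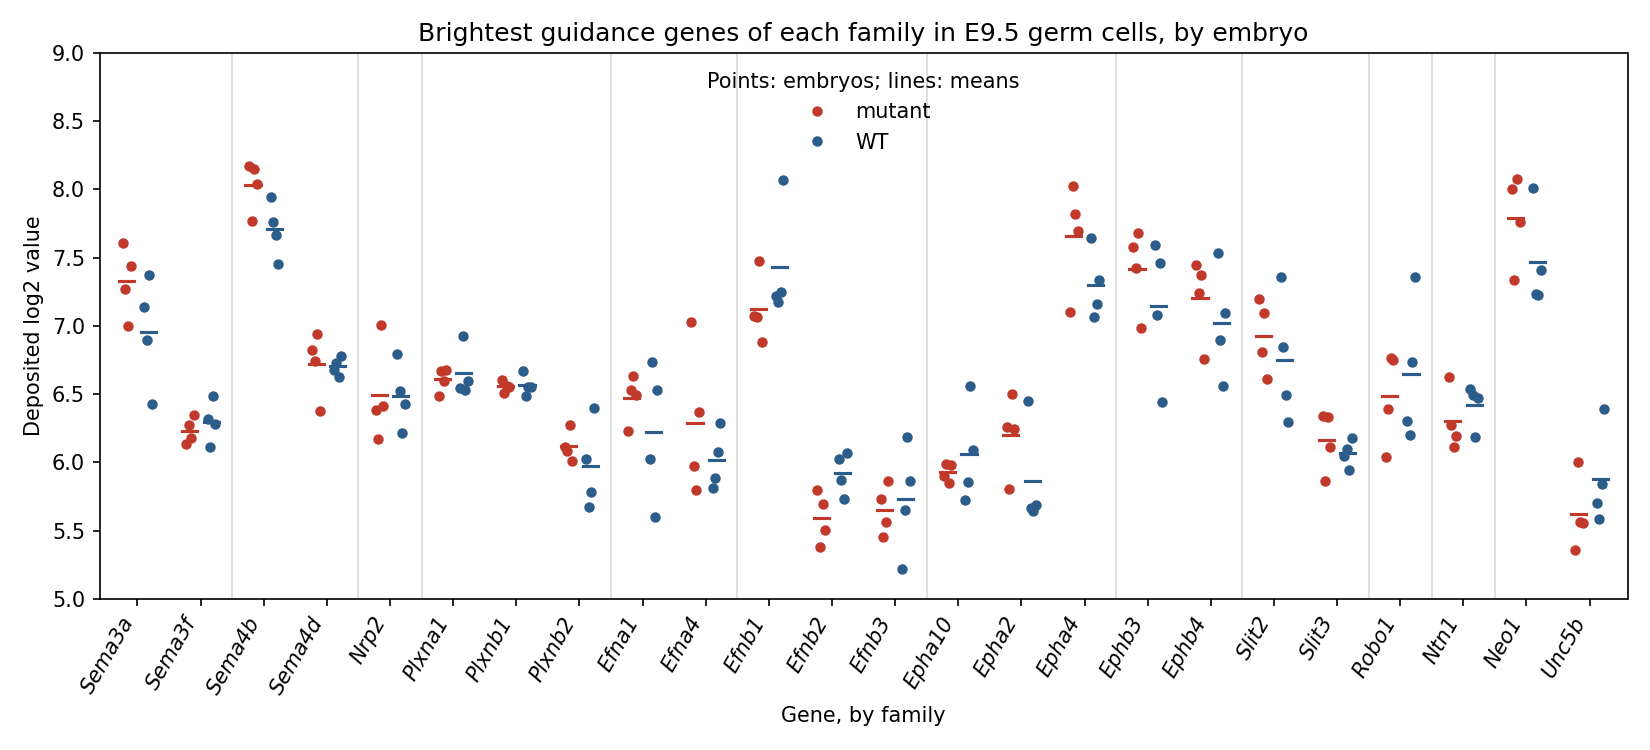
Deposited log2 values (y axis) of the brightest guidance genes of each family, with mutants in red left of WT in blue. Points are embryos and lines are group means of 4 embryos. The embryos of the 2 groups overlap in every gene drawn, and heights are not comparable between genes because each gene has its own probe.

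No guidance gene passed the test between mutant and WT PGCs. Of 68 members 0 passed limma's test at an adjusted p under 0.05, where 0% of all 19938 genes did. At an unadjusted p under 0.05 there were 1 member lower and 0 higher in mutants, a share of 1.47% against 4.68% of all genes in either direction (2.72% higher and 1.96% lower). In 0 members did the mutant values lie wholly above or below the WT values, against 2.52% of all genes. The median difference of the members was -0.02, and so was that of all genes (-0.02). On the deposited values 28 members lay above 0 and 40 below, where 44.6% of all genes lay above 0. After quantile normalization and after median centring it was 37 above and 31 below, where 52.3% and 58.2% of all genes lay above 0. The count of members thus shifted as that of all genes did, and no direction holds for the families as a whole. The limma adjusted p of members ran from 0.973 to 1.00.

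The limma intervals show how precisely the difference in probe signal was measured, taken gene by gene and not adjusted for the 68 members. The median SE of a member's difference was 0.17. For 67 of 68 members the whole 95% interval lay between -1 and 1 on the log2 scale. The highest upper bound was 0.84, a 1.79-fold higher level, for Sema3a. The lowest lower bound was -1.20 for Efna5, whose spread came from 1 embryo, and otherwise -0.79, a 1.72-fold lower level, for Efnb1. The intervals concern probe signal and do not show that the groups are alike. For the 20 members with means no higher than the 95th percentile of the odorant and pheromone receptors, a narrow interval may say little about the transcript. 1 embryo weighed on the counts: without WT 1, 6 members had an unadjusted p under 0.05 (8.82%, against 8.60% of all genes) and 9 did not overlap, against 9.47% of all genes, and 0 passed the adjusted threshold. Without WT 3 the unadjusted count was 3 (4.41%, against 4.18% of all genes), 2 members did not overlap, against 4.59% of all genes, and 36 differences lay above 0 and 32 below, where 50.2% of all genes lay above 0. Values of all 8 embryos are given for 27 members. Leaving out 1 embryo moved the difference by over 1.5 times, or turned its sign, in 25 of them, Efnb2 and Sema4b being the other 2.

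**Figure D2:**
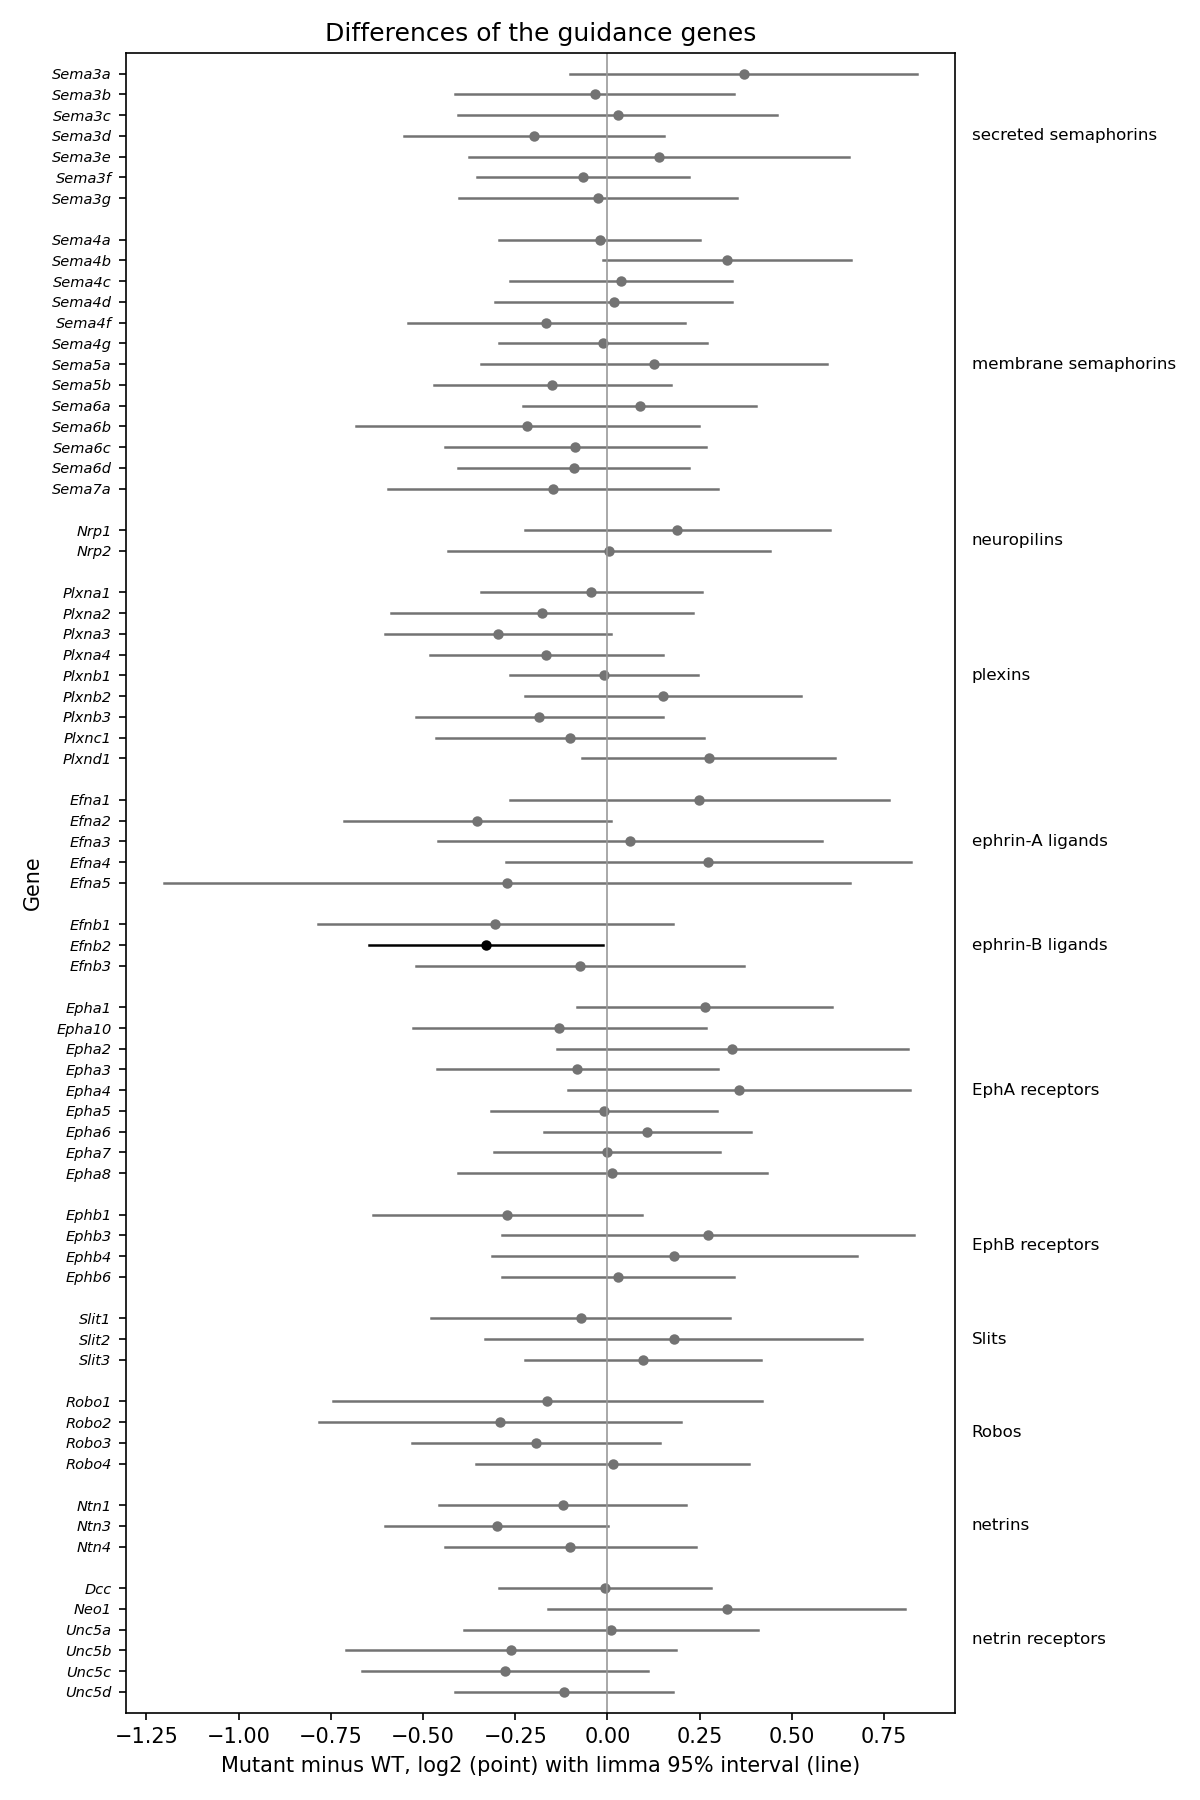
Difference between mutant and WT PGCs on the log2 scale (x axis) for all 68 guidance genes by family (y axis), as points with limma's 95% intervals as lines. Efnb2, drawn in black, is the 1 gene whose interval excludes 0, before any adjustment, and Efna5 has the widest interval.

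Among the class 3 semaphorins, which are secreted, Sema3a is the classic repellent that signals through Nrp1. It read 7.61, 7.27, 7.0 and 7.44 in mutants 1 to 4, against 7.14, 6.90, 7.37 and 6.42 in WT 1 to 4. The difference was 0.37 ± 0.21 (SE; interval -0.10 to 0.84), with WT 4 lowest and WT 1 and WT 3 among the mutants, and it was 0.19 without WT 4. Sema3f, a ligand of Nrp2, read 6.13, 6.28, 6.18 and 6.34 in mutants 1 to 4, against 6.32, 6.11, 6.49 and 6.28 in WT 1 to 4, and the WT range enclosed that of the mutants, with a difference of -0.07. Sema3e, which binds Plxnd1 without a neuropilin, read 5.79, 6.01, 6.17 and 6.39 in mutants 1 to 4, against 5.94, 5.28, 6.32 and 6.27 in WT 1 to 4, with WT 2 well below every other embryo. Its difference was 0.14 (interval -0.37 to 0.66), and without WT 2 it was -0.08. The other class 3 members, Sema3b, Sema3c, Sema3d and Sema3g, had means from 3.66 to 5.51, none above the median of all genes, and differences from -0.20 to 0.03.

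The membrane semaphorins of classes 4 to 7 numbered 13. Sema4b, a class 4 semaphorin with a transmembrane segment, read 8.17, 7.77, 8.15 and 8.04 in mutants 1 to 4, against 7.95, 7.76, 7.67 and 7.46 in WT 1 to 4. Mutants 1, 3 and 4 exceeded all 4 WT embryos and mutant 2 lay beside WT 2, a difference of 0.32 ± 0.15 (SE; interval -0.01 to 0.66). Sema4d, the ligand of Plxnb1, read 6.82, 6.74, 6.94 and 6.38 in mutants 1 to 4, against 6.68, 6.73, 6.63 and 6.78 in WT 1 to 4, and the difference of 0.02 was far below the spread of the mutants. The probe of Sema4d used here and its second probe differed by up to 1.39 in 1 embryo, but both gave differences close to 0 (0.02 and 0.06). The other 11 were Sema4a, Sema4c, Sema4f, Sema4g, Sema5a, Sema5b, Sema6a, Sema6b, Sema6c, Sema6d and Sema7a. Their means ran from 4.72 to 6.05, and their differences from -0.22 (Sema6b) to 0.13 (Sema5a). Sema6b has 2 probes whose values are identical in all 8 arrays, so they count once.

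On the receptor side Nrp2, a neuropilin, read 6.38, 6.17, 7.0 and 6.41 in mutants 1 to 4, against 6.79, 6.52, 6.21 and 6.43 in WT 1 to 4, with mutant 3 highest and mutant 2 lowest of all, and the difference was 0.00 (interval -0.43 to 0.44). Nrp1 had a mean of 4.60, below the median of all genes, and a difference of 0.19. Plxna1, the partner of neuropilins for class 3 ligands, read 6.49, 6.67, 6.60 and 6.68 in mutants 1 to 4, against 6.55, 6.93, 6.53 and 6.60 in WT 1 to 4. Plxnb1, the Sema4d receptor, varied least of all 68 members, at 6.60, 6.51, 6.56 and 6.56 in mutants 1 to 4, against 6.67, 6.48, 6.55 and 6.55 in WT 1 to 4. Its SD over the 8 arrays was 0.06, and its difference was -0.01 (interval -0.26 to 0.24). Plxnb2 read 6.11, 6.09, 6.28 and 6.01 in mutants 1 to 4, against 6.03, 5.67, 5.79 and 6.40 in WT 1 to 4, and the WT embryos alone covered the range of the mutants. Of the other 6 plexins (Plxna2, Plxna3, Plxna4, Plxnb3, Plxnc1 and Plxnd1), 1 was higher and 5 were lower in mean in mutants, with differences from -0.30 (Plxna3) to 0.27 (Plxnd1), and 0 of them passed.

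The only member past an unadjusted 0.05 was an ephrin-B ligand. The other 2 ephrin-B ligands also had lower means in mutants, but Efnb3 turned to 0.08 without WT 3 and Efnb1 came to -0.09 without WT 4, against differences of -0.08 and -0.30 over all embryos. Efnb2, the ligand of Ephb4 known from arteries, read 5.80, 5.38, 5.70 and 5.50 in mutants 1 to 4, against 6.03, 5.87, 5.73 and 6.07 in WT 1 to 4. Mutants 2, 3 and 4 lay below every WT embryo, mutant 3 just below WT 3, while mutant 1 lay above WT 3. The difference was -0.33 ± 0.14 (SE; interval -0.65 to -0.01), with an unadjusted limma p of 0.0437 and an adjusted p of 0.973, so it was not called. Under the 16 alternative settings the difference ran from -0.40 to -0.26, but under most of them the unadjusted limma p exceeded 0.05. That p ran from 0.0258 without WT 3 to 0.125 without mutant 2, and was 0.0930 after quantile normalization and 0.112 after median centring. Efnb1, an X-linked ephrin, read 7.08, 7.06, 7.48 and 6.89 in mutants 1 to 4, against 7.22, 7.18, 7.25 and 8.07 in WT 1 to 4. WT 4 stood apart at 8.07, and the other 7 embryos lay between 6.89 and 7.48. Efnb3 read 5.73, 5.46, 5.56 and 5.86 in mutants 1 to 4, against 5.22, 5.65, 6.19 and 5.86 in WT 1 to 4, and the WT embryos spread over both sides of the mutants.

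The ephrin-A ligands did not share a direction. Efna1 read 6.23, 6.53, 6.63 and 6.49 in mutants 1 to 4, against 6.02, 6.74, 5.60 and 6.53 in WT 1 to 4, with the 4 mutants close together and WT 3 lowest. Its difference was 0.25, and 0.04 without WT 3. Efna4 read 7.03, 5.97, 5.79 and 6.37 in mutants 1 to 4, against 5.81, 5.89, 6.08 and 6.29 in WT 1 to 4, with mutant 1 highest, and without mutant 1 the difference was 0.03 in place of 0.27. Efna5 had the largest SD over the 8 arrays of all members (0.72), with 5.27, 5.33, 5.33 and 5.51 in mutants 1 to 4, against 4.92, 5.17, 5.22 and 7.22 in WT 1 to 4. Only WT 4 was high, and without it the difference was 0.26 in place of -0.27 and the 4 mutants lay above the other 3 WT embryos. Efna2 and Efna3, with means of 5.26 and 4.61, differed by -0.35 and 0.06.

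EphA receptors are bound mainly by ephrin-A ligands. Epha4, which binds ephrins of both classes, read 7.10, 8.02, 7.82 and 7.69 in mutants 1 to 4, against 7.64, 7.07, 7.16 and 7.33 in WT 1 to 4. Mutants 2, 3 and 4 exceeded all WT embryos and mutant 1 lay among them, giving a difference of 0.36 ± 0.21 (SE; interval -0.11 to 0.82), which ran from 0.23 without mutant 2 to 0.54 without mutant 1. Epha2 read 6.26, 5.81, 6.50 and 6.24 in mutants 1 to 4, against 6.45, 5.67, 5.64 and 5.69 in WT 1 to 4. WT 1 was as high as the mutants, while the other 3 WT embryos lay below all mutants, and the difference was 0.34 ± 0.21 (SE; interval -0.14 to 0.81), or 0.54 without WT 1. Epha10, an Eph receptor whose kinase is predicted to be inactive, read 5.90, 5.99, 5.85 and 5.98 in mutants 1 to 4, against 5.72, 5.86, 6.56 and 6.09 in WT 1 to 4, with WT 3 above the rest. Its 2 probes gave -0.13 and 0.03, and without WT 3 the probe used gave 0.04. The remaining Epha1, Epha3, Epha5, Epha6, Epha7 and Epha8 all had means below the median of all genes (3.70 to 5.47), and their differences ran from -0.08 to 0.26.

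Of the EphB receptors, Ephb3, which helps to position cells of the gut epithelium, read 7.58, 7.42, 7.68 and 6.98 in mutants 1 to 4, against 7.59, 7.08, 7.46 and 6.44 in WT 1 to 4. Mutant 4 and WT 4 were the lowest of their groups. Ephb4, the receptor of Efnb2 in veins, read 7.45, 7.24, 7.37 and 6.75 in mutants 1 to 4, against 7.54, 6.90, 6.56 and 7.10 in WT 1 to 4, with mutant 4 and WT 3 lowest in their groups. The differences were 0.27 (interval -0.29 to 0.83) and 0.18 (interval -0.31 to 0.68), within the spread of the embryos. Without WT 4 that of Ephb3 was 0.04, and without WT 3 that of Ephb4 was 0.03. Ephb1 and Ephb6 had means of 5.03 and 5.36 and differences of -0.27 and 0.03.

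Slit2 is a secreted repellent, and its probe read 7.19, 6.81, 7.09 and 6.61 in mutants 1 to 4, against 7.36, 6.85, 6.49 and 6.30 in WT 1 to 4. Slit3 read 6.34, 5.86, 6.33 and 6.12 in mutants 1 to 4, against 6.05, 6.10, 5.94 and 6.18 in WT 1 to 4, while Slit1 had a mean of 4.49. None of the 3 differed beyond the spread of the embryos (differences of 0.18, 0.10 and -0.07). That of Slit2 ran from 0.03 without WT 4 to 0.38 without WT 1. Robo1, a Slit receptor, read 6.04, 6.39, 6.77 and 6.75 in mutants 1 to 4, against 6.30, 6.20, 6.74 and 7.36 in WT 1 to 4. Robo2, a second Slit receptor, read 4.13, 4.64, 4.15 and 4.81 in mutants 1 to 4, against 4.53, 4.29, 5.02 and 5.05 in WT 1 to 4, values in the range of dim probes. The difference was -0.16 in Robo1 (interval -0.74 to 0.42) and -0.29 in Robo2 (interval -0.78 to 0.20), and the embryos of both groups overlapped. Without WT 4 they were 0.07 in Robo1 and -0.18 in Robo2. Robo3 and the endothelial receptor Robo4 had means of 4.75 and 5.53 and differences of -0.19 and 0.01.

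Ntn1, the best known netrin, read 6.62, 6.27, 6.12 and 6.19 in mutants 1 to 4, against 6.54, 6.50, 6.19 and 6.47 in WT 1 to 4, with mutant 1 the highest of all embryos and the other 3 mutants between 6.12 and 6.27, near WT 3. Ntn3 and Ntn4 had means of 5.46 and 5.17, and all 3 netrins had lower means in mutants (differences of -0.12, -0.30 and -0.10), without passing the test. Among the receptors, Neo1 (neogenin), which binds netrins and repulsive guidance molecules, read 8.0, 7.33, 8.07 and 7.77 in mutants 1 to 4, against 8.01, 7.23, 7.23 and 7.41 in WT 1 to 4. WT 1 was as high as the highest mutants, and mutant 2 lay among the other WT embryos, so the difference of 0.32 ± 0.22 (SE; interval -0.16 to 0.81) lay within the spread, and it was 0.50 without WT 1. Unc5b, a receptor for repulsion by netrin, read 5.36, 6.0, 5.56 and 5.56 in mutants 1 to 4, against 5.71, 5.59, 5.84 and 6.39 in WT 1 to 4, with WT 4 highest, and its difference was -0.26, or -0.09 without WT 4. The other netrin receptors, Dcc, Unc5a, Unc5c and Unc5d, had means from 4.84 to 5.50 and differences from -0.28 (Unc5c) to 0.01.

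Genes that carry these signals into the cell, or that modulate the receptors, were taken as a list of 79, of which 74 were measured. They include small GTPases, their exchange factors, kinases, cytoskeletal proteins and further ligands and coreceptors. Of the 74, 0 passed the adjusted threshold, and an unadjusted p under 0.05 was reached by 3, of which 2 had the higher mean in mutants and 1 the lower, a share of 4.05% against 4.68% of all genes. Their median difference was 0.03. Rgma, a repulsive guidance molecule that binds neogenin, read 8.07, 7.83, 8.47 and 7.96 in mutants 1 to 4, against 7.52, 7.85, 7.57 and 7.57 in WT 1 to 4. It differed by 0.45 ± 0.16 (SE; interval 0.10 to 0.81), with WT 2 level with the lowest mutant and an adjusted limma p of 0.973, which Maged1 and Flrt3 shared. Maged1, an adaptor that binds Unc5 receptors, read 9.94, 10.08, 10.20 and 10.31 in mutants 1 to 4, against 10.04, 9.76, 9.32 and 9.86 in WT 1 to 4, a difference of 0.39 ± 0.17 (SE; interval 0.01 to 0.77). Flrt3, a membrane protein that binds Unc5 receptors and Robo1, read 6.08, 5.93, 6.12 and 6.84 in mutants 1 to 4, against 6.59, 6.54, 6.98 and 7.06 in WT 1 to 4, a difference of -0.55 ± 0.21 (SE; interval -1.03 to -0.08). In 1 gene of the list (1.35%, against 2.52% of all genes) the groups did not overlap. It was Tiam1, an activator of Rac, singled out after its values were seen, at 5.28, 5.25, 5.40 and 5.37 in mutants 1 to 4, against 5.40, 5.74, 5.48 and 5.94 in WT 1 to 4. Its highest mutant value, in mutant 3, and its lowest WT value, in WT 1, differed only in the third decimal.

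The somite number, which counts the paired blocks laid down along the trunk and so stages the embryo, was related to the members with genotype in the model. No guidance gene passed: 0 of 68 had a limma adjusted p under 0.05, where 0% of all genes did. At an unadjusted p under 0.05 there were 8 members, or 11.8%, against 9.74% of all genes, which is close to the background and not a result about the families. The split by direction was uneven. A positive slope was found in 1 of 68 members, against 5.02% of all genes, and a negative one in 7 of 68, against 4.72%. Slopes below 0 were found in 48 of 68 members (70.6%), against 59.5% of all genes. The 37 members below the median of all genes had their highest means in WT 3 (5.23), WT 4 (5.11) and mutant 4 (5.07). These are the embryos of fewest somites, and their arrays had the narrowest distributions (SD over genes 1.77, 1.82 and 1.83). In mutant 2, of 22 to 23 somites, the mean of these members was 4.86. The part of this pattern in the slopes was not tested.

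The ligand Slit2 and its receptors Robo1 and Robo2 had the smallest p of the members, and the slope of Slit2 was opposite to theirs. This contrast did not extend to the other Slits. Slit1 had a negative slope too, -0.12 ± 0.05 (SE), with an unadjusted limma p of 0.0548, and Slit3 gave 0.02 ± 0.05 (SE). Robo3 and Robo4 gave -0.07 and -0.07. Slit2 gave 0.21 ± 0.05 (SE) on the log2 scale per somite, and read 7.36 and 6.85 in WT 1 and WT 2, of 25 somites each, but 6.30 in WT 4, of 21. Within each genotype the slope was close to the same, 0.25 in mutants and 0.20 in WT. Robo1 gave -0.24 ± 0.06 (SE), with -0.25 in mutants and -0.24 in WT. Its highest value was that of WT 4, the embryo of fewest somites, and its lowest that of mutant 1, the mutant of most somites. Robo2 gave -0.20 ± 0.05 (SE), with -0.30 in mutants and -0.17 in WT. Its mean of 4.58 lay below the 95th percentile of the odorant and pheromone receptors (5.26). It was highest in WT 4 and WT 3, where dim members were also high, and the part of this in its slope was not tested. The limma adjusted p was 0.374 for Slit2, 0.343 for Robo1 and 0.384 for Robo2, so none of these slopes was called. Leaving out each embryo in turn, the slopes ran from 0.16 to 0.26 for Slit2, from -0.27 to -0.19 for Robo1 and from -0.24 to -0.18 for Robo2. Over all alternative settings they ran from 0.16 to 0.26, from -0.27 to -0.11 and from -0.27 to -0.17. These genes were picked for their slopes over the same embryos, so neither the slopes by genotype nor these ranges are separate support.

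**Figure D3:**
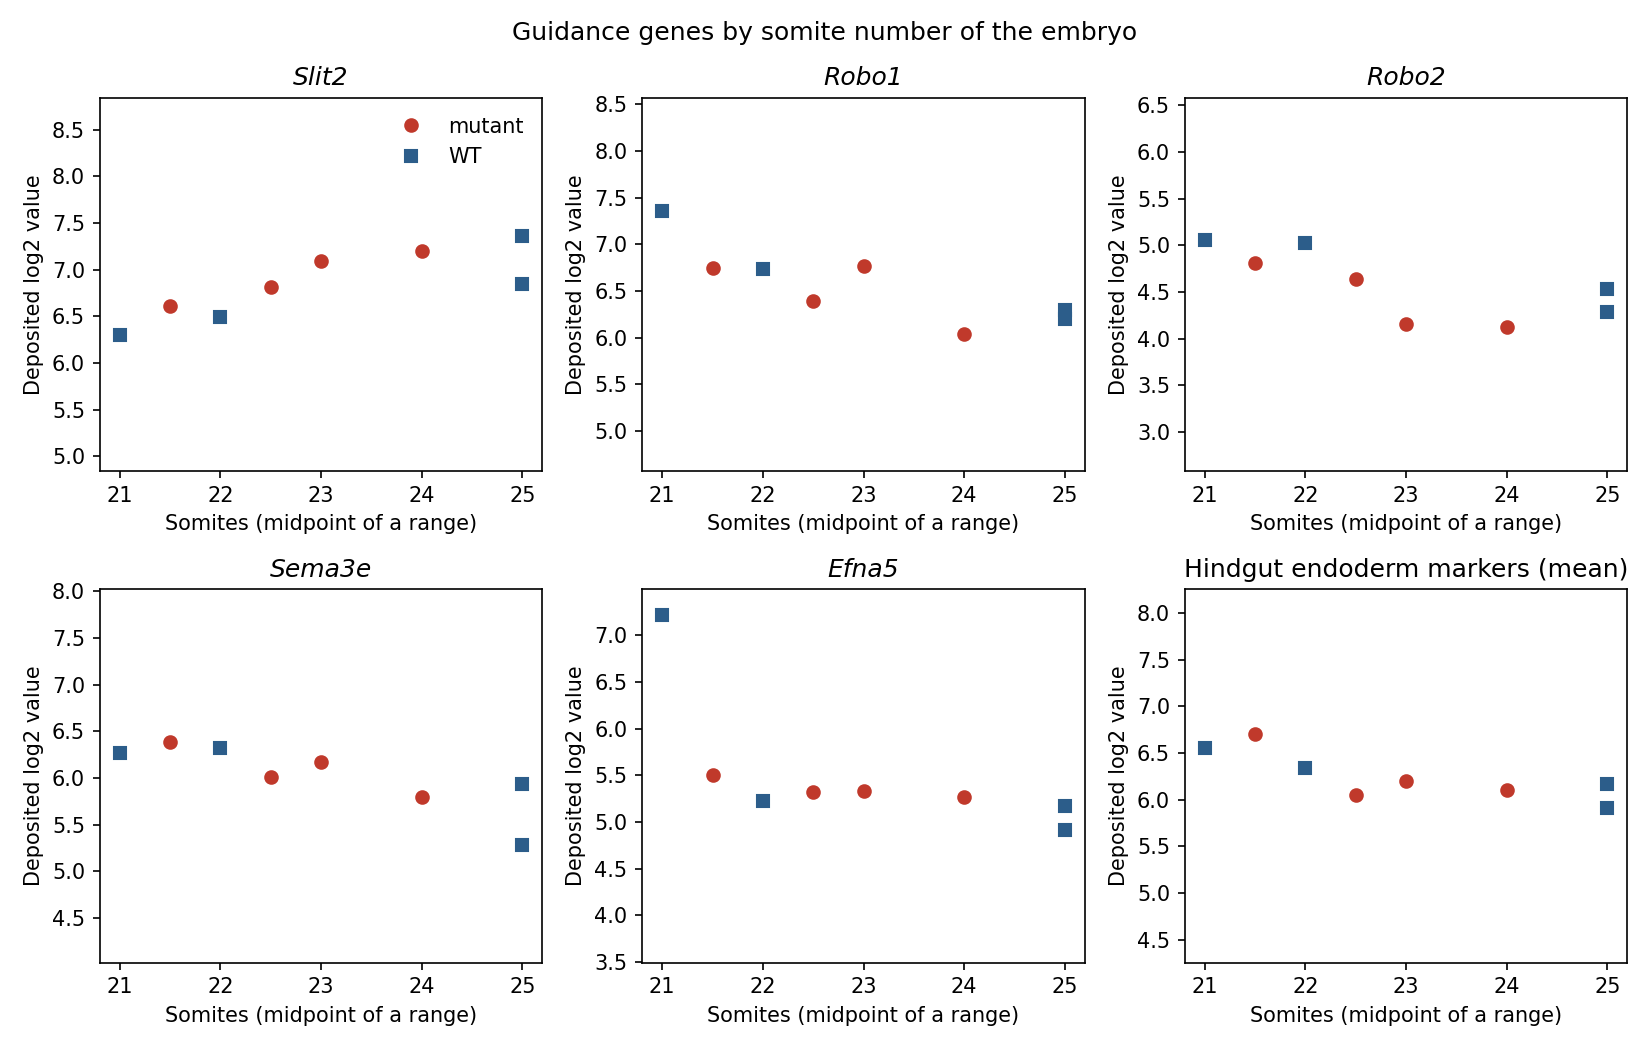
Deposited log2 values (y axis) of Slit2, Robo1, Robo2, Sema3e, Efna5 and the mean of 11 hindgut endoderm markers against the somite number of the embryo (x axis, midpoint where the labels give a range), with mutants as red circles and WT as blue squares. Slit2 is higher and Robo1, Robo2 and Sema3e are lower in embryos of more somites, Efna5 is high only in the WT embryo of 21 somites, and no slope passed the adjusted threshold.

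Sema3e had a slope of -0.19 ± 0.06 (SE) and Efna5 one of -0.34 ± 0.11 (SE). The slope of Efna5 rested on WT 4: without this embryo it was -0.07, with an unadjusted limma p of 0.256. Sema3e kept its sign without any one embryo (from -0.26 to -0.13), with an unadjusted limma p of 0.0509 without WT 2. The other members past an unadjusted 0.05 were Epha3 (-0.13 ± 0.05 SE), Unc5b (-0.14 ± 0.06 SE) and Nrp1 (-0.13 ± 0.05 SE). Unc5b and Nrp1 were no longer past it after quantile normalization or median centring, while Epha3 was. Epha3 and Nrp1 had means of 3.85 and 4.60, below the 95th percentile of the odorant and pheromone receptors (5.26). On the positive side, after Slit2, the smallest p belonged to Ephb3 (0.17 ± 0.08 SE), Sema4b (0.09 ± 0.05 SE) and Ephb4 (0.12 ± 0.07 SE), none past an unadjusted 0.05. WT 4 weighed on these: without it the slope was 0.06 for Ephb3 (unadjusted limma p 0.512), 0.07 for Sema4b (p 0.316) and 0.24 for Ephb4 (p 0.0143). Of the 74 effector genes, 3 had positive and 5 negative slopes at an unadjusted p under 0.05 (10.8% in all, against 9.74% of all genes), and 0 passed the adjusted threshold.

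The 11 markers of the hindgut epithelium were set beside these slopes. Their mean was 6.10, 6.05, 6.19 and 6.71 in mutants 1 to 4, against 5.91, 6.16, 6.34 and 6.56 in WT 1 to 4, highest in the 2 embryos of fewest somites, mutant 4 and WT 4, with an untested slope of -0.14 per somite. Negative slopes were found in 10 of the 11 (90.9%, against 59.5% of all genes), and 2 of 11 had an unadjusted limma p under 0.05 (18.2%, against 9.74% of all genes). Of the 11, 5 had means above the median of all genes. The rest lay below it, where the dim members also read highest in WT 3, WT 4 and mutant 4. The keratin Krt18 read 6.56, 7.48, 6.85 and 7.62 in mutants 1 to 4, against 7.37, 7.43, 7.70 and 9.47 in WT 1 to 4. Krt18 was thus highest in WT 4, the array that was highest for Robo1, Efna5 and Efnb1. Foxa2, Epcam and Krt8 were also highest in WT 4. The markers Sox17, Foxa1, Cdx2, Krt19, Shh, Cldn6 and Spink1 were highest in other arrays. Cdx2, the marker without a negative slope (0.04 per somite), read 7.87 in WT 4, and only mutant 2 was lower (7.83). Spink1, an endoderm marker, was at 6.50 in mutant 4 and between 3.33 and 3.85 elsewhere. The mean of the 13 germ cell markers had a slope of 0.00. The part of hindgut cells in the slopes of Slit2, Robo1 and the other members was not tested, and in sorted bulk RNA fewer cells of a type and less RNA per cell cannot be told apart.

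Many members with dim probes shared the array of their highest value. Of the 37 members below the median of all genes, 19 (51.4%) had their highest value in WT 3, where 34.2% of all genes below the median did. Their mean was 4.92, 4.86, 4.88 and 5.07 in mutants 1 to 4, against 4.79, 4.98, 5.23 and 5.11 in WT 1 to 4. Among the 31 members above the median, WT 3 was highest in 4 (12.9%, against 14.3% of all genes above it), and their mean lay between 6.30 and 6.52 in all 8 arrays. After quantile normalization, which gives the arrays 1 distribution, WT 3 was highest in 13 of the 37 dim members (35.1%), against 19.9% of all genes below the median. The means of primitive erythroid, macrophage, endothelium, trunk mesenchyme and neural tube markers were also highest in WT 3. The means of these lists ran from 4.80 to 5.55 in mutants, against 4.77 to 5.64 in WT. In the same order, 3 of 7, 3 of 8, 1 of 8, 2 of 10 and 3 of 7 of their genes lay above the median of all genes. Most of their genes were thus dim too, and the list means were not recomputed after quantile normalization. The part of such cells in the level of dim guidance genes was not tested.

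**Figure D4:**
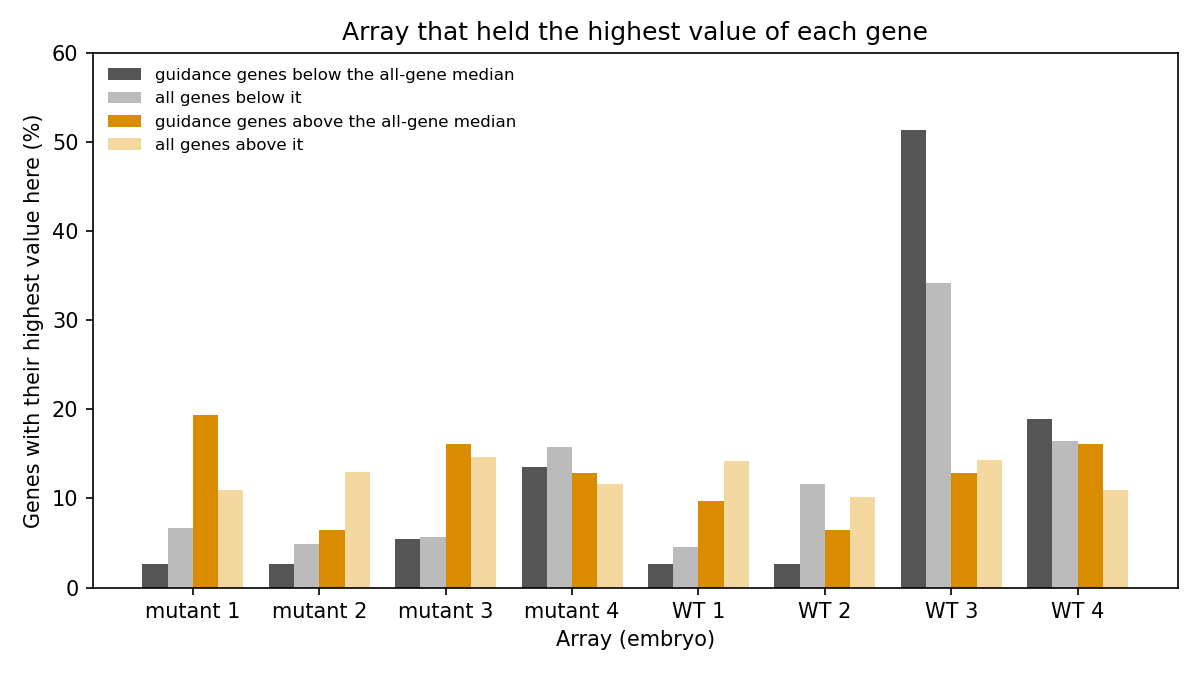
Share of genes (y axis, %) whose highest value over the 8 arrays falls in each array (x axis), for guidance genes below (dark grey) and above (orange) the median of all genes, beside all genes below (light grey) and above it (pale orange). WT 3 holds the highest value of 51.4% of the guidance genes below the median and of 12.9% of those above it.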

How the data were processed

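The expression of PGCs from 8 embryos was measured on 1 array each. The deposited log2 values, 1 per probe and array, were used as given; the log2 scale was inferred from their range, while their background correction and normalization were not given in the sources used here. Array medians ran from 5.37 to 5.58. Of 35557 probes, 21789 had 1 gene symbol in the platform annotation and gave 19938 genes, each represented by its probe of highest mean. Among the members 5 had 2 probes, and all 68 matched RefSeq by gene ID. No coordinates are printed, as no source used here gives the probes' genome build.

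The test was limma (version 3.58.1, with R 4.3.3), as lmFit followed by eBayes without a covariate. P-values were adjusted over all 19938 genes by Benjamini-Hochberg, and the threshold was 0.05. Differences are mutant minus WT, and intervals cover 95%. Somite slopes had genotype in the model, taking the middle of a somite range. The prior degrees of freedom were 4.48. The code was tested on simulated data. Errors marked SE come from limma.

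Each family gave its 3 brightest members above the median of all genes (semaphorins 4). Added to these were members with an unadjusted p under 0.05 or non-overlapping groups, the 4 smallest slope p-values per direction and the 6 members of largest SD, 27 in all. Members, lists and rules were chosen with earlier results of these data known. The alternatives were quantile normalization, median centring, the mean of all probes, a filter on dim genes, a somite covariate, array weights, an intensity trend, the replicate number as a block and each embryo left out; for named slopes they were added after seeing the data.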

Additional observations from a re-analysis of the deposited data

Results flagged for a closer look

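In 7 of 136 groups of 4 embryos, 1 embryo stood apart from the rest by Dixon's criterion, which chance meets in about 1 in 20 groups. WT 4 was high in Efna5 (7.22, the next WT embryo at 5.22) and in Efnb1 (8.07, the next at 7.25). WT 1 was high in Epha2 (6.45, the next at 5.69) and low in Sema4g (5.58, the next at 5.75). Mutant 4 was high in Nrp1 (5.09, the next mutant at 4.59) and in Plxnd1 (6.07, the next at 5.69). Mutant 2 was low in Sema3b (4.96, the next at 5.37).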

How the results depend on the processing

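Under every alternative run, 0 members passed the adjusted threshold for mutant against WT or for the somite slope. The count of members at an unadjusted p under 0.05 for mutant against WT, 1 on the deposited values (4.68% of all genes), was 2 after quantile normalization (4.86% of all genes), 3 after median centring (5.15%) and 0 of 31 among genes above the median level (5.40%). It was 3 with the somite covariate (6.55%), 5 with array weights (6.33%) and 0 with the intensity trend (4.78%). It ran from 0 to 6 with each embryo left out, the highest without WT 1, while the share of all genes ran from 3.66% to 8.60%. Members whose groups do not overlap, 0 on the deposited values (2.52% of all genes), numbered 2 after quantile normalization (2.71%) and 2 after median centring (2.88%), Ntn3 and Plxnd1 in both, named after their values were seen. They ran from 0 to 9 with each embryo left out, where the share of all genes ran from 4.38% to 9.47%. The count of slopes at an unadjusted p under 0.05 was 8 on the deposited values (9.74% of all genes). It was 6 after quantile normalization (8.4%) and 8 after median centring (9.58%). Among the 31 members above the median level it was 4 (10.5%), and it ran from 6 to 11 with each embryo left out (6.51% to 11.6%).

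With the replicate block both counts at an unadjusted p under 0.05 were 0, while over all genes 891 (4.47%) for genotype and 675 (3.39%) for the slope remained under it. The deviations of embryos with the same number correlated between -0.19 and 0.097, and 0 of 4 mutants correlated best with the WT embryo of its own number, so the numbers were not taken to pair the samples. The median difference of the members stayed between -0.10 and 0.09 under all alternatives. Of 430 differences of named members under the alternatives, 17 had the other sign, in 9 of the 27 members. The cause of these changes was not tested.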
